A study of Mus musculus with 10 samples.

Results

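The transcriptional response of fibroblasts labelled Slfn2 KO to interferon-β was read from 4 of the 10 RNA-sequencing libraries of the series: 2 from untreated KO-labelled cells and 2 from KO-labelled cells given IFN-β. The members were chosen by label alone, untreated library 1 pairs with IFN-β library 1 and untreated library 2 with IFN-β library 2, and every expressed gene was tested. All cells were immortalised mouse embryonic fibroblasts (MEFs), either with Slfn2, a growth-regulating member of the Schlafen family that is itself interferon-inducible, labelled WT, or with its knockout, labelled KO. IFN-β was mouse protein at 5000 IU/ml for 6 h; the controls were left untreated. The other 6 libraries, 3 untreated and 3 treated from WT-labelled cells, entered the model so that all groups shared one estimate of the spread. The labels give neither the deleted part of Slfn2, nor the number of clones behind each line, nor whether replicate plates were separate cultures, so the p-values measure only the spread between these libraries, which may be technical.

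IFN-β binds the IFNAR1 and IFNAR2 receptor chains, whose associated kinases JAK1 and TYK2 phosphorylate STAT proteins. These join IRF9 to form ISGF3, a complex that binds interferon-stimulated response elements in the promoters of antiviral genes. Several of its targets (Irf7, Stat2, Irf9) amplify the response, whereas others (Usp18, Socs1) dampen it. In fibroblasts this response is the classical model of an antiviral state.

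The letters of the interferon-stimulated response element (GAAA, then any 2 bases, then GAAA, on either strand, overlaps between matches allowed) were looked for in the RefSeq promoters of the genes tested, 250 bases before to 50 after each start. The sequences are the 150 bases before the start of 6 strongly risen genes, 5′ to 3′ on the gene's strand, from the RefSeq table of build GRCm38.p6. Capitals mark the matching letters. They are shown because genes of different families (an IFIT protein, a ubiquitin-like protein, an enzyme, a 2′-5′ oligoadenylate synthetase, a signalling inhibitor and a guanylate-binding protein) hold the same letters within this short stretch. The stretches are chr19:34640739-34640888, plus strand for Ifit1, chr4:156200819-156200968, minus strand for Isg15, chr12:26456453-26456602, minus strand for Rsad2, chr5:120907526-120907675, minus strand for Oas1a, chr16:10785537-10785686, minus strand for Socs1 and chr3:142530186-142530335, plus strand for Gbp7.
Ifit1: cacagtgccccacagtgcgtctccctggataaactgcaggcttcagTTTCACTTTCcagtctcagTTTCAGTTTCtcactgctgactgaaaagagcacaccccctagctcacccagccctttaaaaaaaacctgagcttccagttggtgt
Isg15: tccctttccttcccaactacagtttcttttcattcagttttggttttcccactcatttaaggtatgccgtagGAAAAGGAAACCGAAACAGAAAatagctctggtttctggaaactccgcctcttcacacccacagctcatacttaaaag
Rsad2: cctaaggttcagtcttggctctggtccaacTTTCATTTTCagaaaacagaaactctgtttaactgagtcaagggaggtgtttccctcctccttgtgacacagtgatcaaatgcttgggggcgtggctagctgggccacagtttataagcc
Oas1a: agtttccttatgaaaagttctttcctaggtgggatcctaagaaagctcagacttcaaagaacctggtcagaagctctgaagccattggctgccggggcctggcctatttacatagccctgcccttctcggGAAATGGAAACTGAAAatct
Socs1: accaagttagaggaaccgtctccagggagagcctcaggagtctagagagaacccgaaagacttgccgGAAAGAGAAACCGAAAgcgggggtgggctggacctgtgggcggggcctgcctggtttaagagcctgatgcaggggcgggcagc
Gbp7: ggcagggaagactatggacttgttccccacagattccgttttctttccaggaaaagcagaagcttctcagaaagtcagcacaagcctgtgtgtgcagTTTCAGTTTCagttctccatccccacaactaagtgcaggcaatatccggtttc
Isg15 held 3 overlapping matches, Socs1 and Oas1a 2 overlapping matches each, Ifit1 2 separate matches, and Rsad2 and Gbp7 1 each. The promoter table has no entry for Usp18, Mx1 and Mx2. Among the genes that rose in KO-labelled cells (415 genes, adjusted p under 0.05), 85 of the 330 with a promoter in the table held the motif, 25.8% (95% Wilson interval 21.3 to 30.7%). The share was 60% (51 of 85) among those that rose by a log2 of at least 4, 16.6% (30 of 181) from 1 to 4 and 6.25% (4 of 64) under 1. It was 2.97% (280 of 9433) among genes not called and 0 of 10 among genes that fell, against 3.73% of all tested genes and 3.44% of all 32851 promoters in the table. A match describes letters only and does not show binding. These shares and intervals treat genes as independent, although neighbouring copies such as Oas1a and Oas1b held the same matching letters and were counted separately. In the same 150 bases, the risen genes Cxcl10, Irf7, Stat2 and Irf9 held no match, which says only that these letters are not in that stretch.

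**Figure D1:**
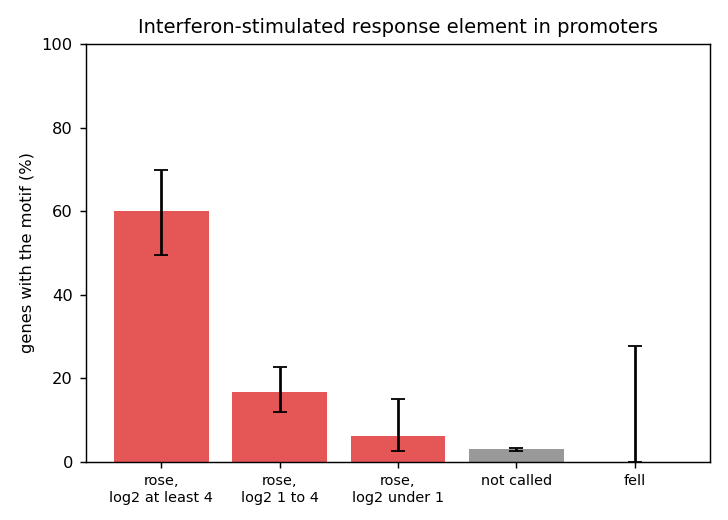
Percent of genes whose promoter holds the interferon-stimulated response element letters (y axis), by their call in KO-labelled cells (x axis); bars are shares and whiskers 95% Wilson intervals. The share falls from 60% of genes that rose by a log2 of at least 4 to 6.25% of genes that rose by under 1, and is 2.97% among genes not called.

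Depth was even: the 4 KO libraries held 14600785 to 16329729 reads assigned to genes, and 13658 to 14311 genes had a read. Values are normalised reads, that is reads of a gene divided by the library's size factor, with no correction for gene length, so levels of different genes are not compared. Fold changes are differences of log2(normalised reads + 1) between IFN-β and untreated, with their standard error (SE), and a gene rose or fell where limma's Benjamini-Hochberg adjusted p was under 0.05. Fibroblast genes were high in all 4 libraries: Col1a1 had 112448 and 141624 normalised reads untreated and 129010.0 and 136552 with IFN-β in libraries 1 and 2. No marker of 12 on the epithelial list passed the filter on low counts, and the list summed to 7.34 and 12.2 normalised reads in the untreated libraries and 2.11 and 14.6 with IFN-β, Epcam being at 0 in all 4. Of 12 endothelial markers 1 was tested and did not pass, and the list summed to 57.7 and 66.0 untreated and 65.5 and 87.5 with IFN-β. Of 16 macrophage and leukocyte markers 5 were tested and 1 rose, Mpeg1, a pore-forming protein that is also interferon-inducible. That list summed to 221 and 164 untreated and 270.4 and 438 with IFN-β. Mpeg1 had 1.05 and 0.942 untreated and 84.5 and 282 treated, while Itgam, Emr1, Cd3e and Tyrobp were at 0 in all 4 libraries. Nearly all of the untreated sum thus came from list members not named here, so the list as a whole was not absent. In bulk RNA, fewer cells of a type and less RNA per cell cannot be told apart.

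Slfn2 itself was detected in every KO library. Its level was 46.1 and 34.9 normalised reads in untreated libraries 1 and 2 and 75.0 and 171 with IFN-β, against 18.7, 17.4 and 15.5 untreated and 527, 449 and 573 treated in WT-labelled cells (chr11:83065112-83070678, plus strand, GRCm38). The KO libraries labelled untreated were thus above the WT-labelled ones, and the treated ones below. The change in KO-labelled cells was 1.48 ± 0.37 (adjusted p = 0.0845), and it passed in limma without IFN-β library 1 (adjusted p = 0.00602) and with all libraries in DESeq2 (adjusted p = 0.00194), but not in edgeR (0.0642). Reads counted over the whole gene do not check a deletion whose position is not given. Ifnb1, the gene of the cytokine given, had 0 reads in all 4 KO libraries, under the floor of 3 reads per library.

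Across the 12313 genes tested, 415 rose (3.37% of those tested) and 14 fell (0.114%) in KO-labelled cells. Far more genes rose than fell, while the median log2 fold change over all tested genes was -0.03. The balance depended on the fit: the 4 KO libraries fitted alone with the block gave 897 genes higher and 353 lower. Among the genes that rose, 337 did so by a log2 of at least 1, 203 by at least 2, 113 by at least 4 and 20 by at least 8. All 415 were higher with IFN-β in both pairs, as were 3425 of the 12313 genes tested. In 388 the treated and untreated libraries did not overlap, as in 10.7% of all genes tested. The risen genes held 1.33% and 1.63% of normalised reads in untreated libraries 1 and 2 and 4.78% and 6.12% with IFN-β. Genes were chosen on this contrast, so the last figures describe them and test nothing. Without the replicate block 225 genes rose (1.83%) and 2 fell (0.0162%), all 225 among the 415. In fits that left out 1 of the 10 libraries in turn, 240 of the 415 were called higher each time, among them 164 of the 203 with a log2 of at least 2.

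**Figure D2:**
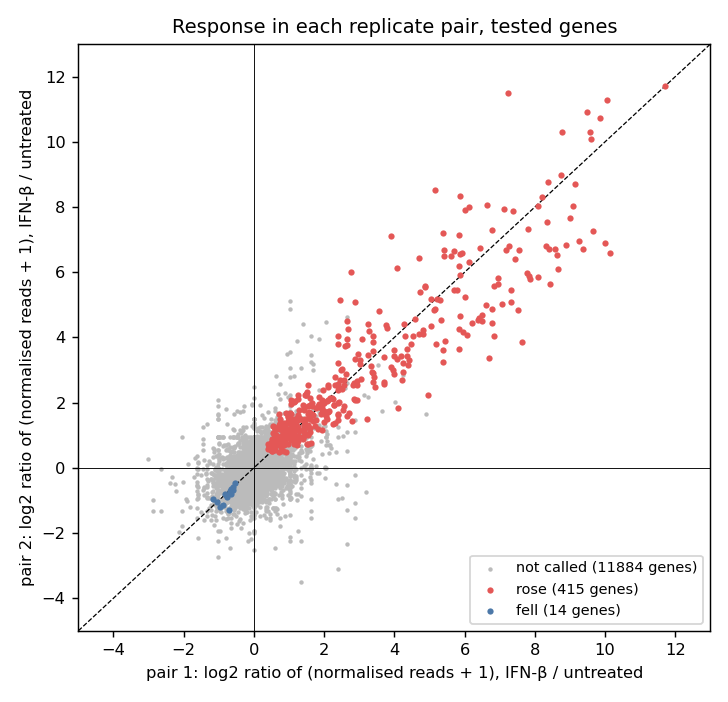
Log2 ratio of (normalised reads + 1), IFN-β over untreated, in pair 1 (x axis) and pair 2 (y axis) for each of the 12313 tested genes, with risen genes in red, fallen genes in blue and the others in grey. All 415 risen genes lie above 0 in both pairs, and the dashed line marks equal ratios.

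The median log2 ratio among the risen genes was 2.01 in pair 1 and 1.94 in pair 2. These genes were called by a fit that pairs the same libraries, which favours genes whose pairs are alike, so the medians are a description. The number-2 libraries started and ended higher for most of the risen genes. Of the 415, 270 (65.1%) had the higher untreated level in library 2, against 51.4% of all genes tested, and 321 (77.3%) had the higher IFN-β level there, against 51.5%. Library number also went with large differences in genes that were not called: Ctgf, a matrix-signalling protein and target of growth factor and mechanical cues, had 21266 and 302 normalised reads in untreated libraries 1 and 2 and 18618 and 206 with IFN-β. Among risen genes with a mean of at least 100 normalised reads under IFN-β, the log2 ratio was most above in pair 2 against pair 1 for Gbp5 (5.16 and 8.51), Apod (3.90 and 7.10), Ifi47 (5.88 and 8.32) and Gm12250 (7.22 and 11.50), the pair 1 ratio being given before that of pair 2. It was most below for Zbp1 (10.00 and 6.90), Trim30a (7.64 and 3.85), Gbp7 (10.14 and 6.58) and Apol9a (6.69 and 3.37). Both ratios were above 0 for each of these 8 genes. Trim30a lost its call without IFN-β library 1 (adjusted p = 0.0593) and Apod without untreated library 2 (0.0657).

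**Figure D3:**
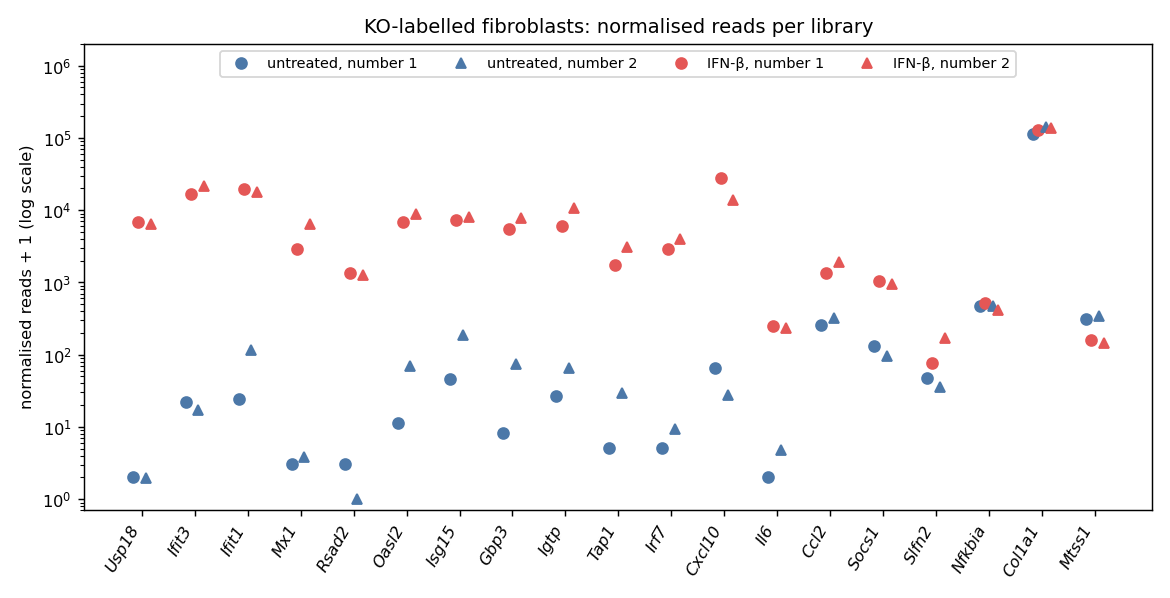
Normalised reads + 1 (log scale, y axis) of 19 genes (x axis) in the 4 KO libraries: circles are library number 1 and triangles number 2, blue untreated and red IFN-β. The red symbols lie above the blue from Usp18 to Slfn2, although Slfn2 was not called, overlap for Nfkbia and Col1a1, and lie below for Mtss1.

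Among the signalling genes, Stat2 and Jak2 rose, and no tested interferon receptor chain passed. Stat2, a transcription factor of ISGF3, went from 90.2 and 266 to 5283 and 6753 normalised reads in libraries 1 and 2 (5.26 ± 0.31, adjusted p = 2.78e-05), every treated library being above every untreated one. Jak2, the kinase of other cytokine receptors, rose by 0.95 ± 0.20 (adjusted p = 0.0442), a call lost without the block (0.855). It was lost too without KO untreated library 1 (0.217) or 2 (0.217), KO IFN-β library 2 (0.413), WT untreated library 3 (0.0799) or any WT IFN-β library (0.0770, 0.103 and 0.0800). Ifnar1, a receptor chain, had 1048 and 1309.6 normalised reads before and 906 and 1087 after treatment (-0.24 ± 0.11), and Jak1 2430.3 and 2173 and 2953 and 2455 (0.23 ± 0.10), neither past the threshold.

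Of 9 tested interferon regulatory factors (with their binding partners), 5 rose, with a list median of 1.91. Irf7, which drives later interferon genes, went from 4.19 and 8.48 to 2925 and 3956 normalised reads (8.92 ± 0.60, adjusted p = 5.73e-05), and Irf9, the DNA-binding part of ISGF3, from 169 and 153 to 1624 and 1675 (3.35 ± 0.16). Irf5 rose by 3.22 ± 0.30. Irf1, a broad activator of antiviral and antigen presentation genes, rose by 2.24 ± 0.23 (adjusted p = 0.000551, 0.137 without the block). The partners Irf2bp1 (-0.17) and Irf2bp2 (-0.05) did not pass.

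Inhibitors of the pathway were represented by 2 of 17 tested members that rose. Usp18, which removes ISG15 from proteins and blocks IFNAR2 signalling, rose from 1.05 and 0.942 to 6838 and 6462 normalised reads and had the largest fitted change of all genes tested. From 2 untreated reads in all, the ratio was 6686 (95% counting interval 1851 to 55218). Socs1, an inhibitor of JAK kinases, went from 129 and 96.1 to 1044 and 955 (3.15 ± 0.17, adjusted p = 1.98e-05). The phosphatase Ptpn11 and the regulators Socs5 and Pias2 had log2 fold changes of -0.03, -0.15 and 0.04 and did not pass.

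The IFIT and OAS families rose in every tested member. All 6 tested IFIT genes, whose proteins bind foreign RNA and block its translation, rose, with a median of 7.76 (7.34 with the gene at 0 untreated reads at its lower bound). Ifit1 (chr19:34640871-34650009, plus strand) went from 23.1 and 114 to 19381 and 17761 normalised reads (8.46 ± 0.55, adjusted p = 4.84e-05), and Ifit3 from 20.97 and 16.0 to 16826 and 21526 (9.94 ± 0.30, adjusted p = 1.62e-06). I830012O16Rik, known also as Ifit3b, rose by 9.84 ± 0.29 and Gm14446, with 0 untreated reads, was at least 54.1-fold higher. Ifit3 and its copy are near-identical, and how the counting split reads between such genes is not known. All 9 tested genes of the 2′-5′ oligoadenylate synthetases and RNase L, which degrade viral RNA, rose as well (median 6.92, or 6.16 with 3 genes at their bound). Oasl2 went from 10.5 and 68.8 to 6970.1 and 8732 (8.11 ± 0.50). Oas1a and Oas3 had 0 untreated reads, and were at least 128-fold and at least 44.5-fold higher with 332 and 432 and 109.8 and 156 normalised reads.

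Of the 9 tested genes of ISG15 conjugation, a ubiquitin-like modification of proteins, 5 rose (median 3.10). Isg15 (chr4:156199424-156200818, minus strand) went from 45.1 and 184 to 7386 and 8141 normalised reads (6.39 ± 0.45, adjusted p = 7.32e-05). Its activating enzyme Uba7 rose by 5.44 ± 0.69 and its ligase Herc6 by 4.04 ± 0.17, whereas the related Ube2e1, Ube2e2 and Herc4 (0.25, -0.07 and -0.05) did not pass.

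Of 46 other tested antiviral effectors 35 rose, with a median of 2.95. Mx1, a dynamin-like GTPase that traps viral particles, went from 2.10 and 2.83 to 2864 and 6470.1 normalised reads (10.29 ± 0.50, adjusted p = 1.14e-05), and Mx2 from 1 untreated read in all to 2186 and 2485, a ratio of 4729 (95% counting interval 848 to 186814). GENCODE lists Mx2 as a polymorphic pseudogene, as it does Oas1b and Cxcl11. Rsad2, which makes a nucleotide that stops viral RNA chains, had 2.10 and 0 untreated and 1341 and 1262 treated normalised reads, a ratio of 1309 (95% counting interval 362 to 10811). Cmpk2, its genomic neighbour, rose by 8.33 ± 0.39. Lap3, Ifitm2 and Ifi30, which had the highest levels of the list members not called, had log2 fold changes of 0.09, 0.07 and -0.47.

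Sensors of foreign nucleic acid responded in part, with 9 of 25 tested members risen and a median of 0.48. Zbp1, a sensor of Z-form nucleic acid, rose by 8.45 ± 0.83 from 0 and 11.3 to 1027 and 1472 normalised reads. Ifih1 (MDA5) went from 26.2 and 144 to 3012 and 3151 (5.62 ± 0.55), Dhx58 (LGP2) from 65.0 and 97.0 to 1766 and 4086 (5.06 ± 0.24) and Tlr3, which senses double-stranded RNA in endosomes, from 81.8 and 107 to 2957 and 3160.3 (5.01 ± 0.32). The RNA helicases Dhx9 (0.04) and Dhx36 (0.15) did not pass, nor did the kinase Tbk1 (0.48), except without WT untreated library 2 (adjusted p = 0.0252).

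The 2 families of large interferon-inducible GTPases, which attack membranes around intracellular pathogens, rose almost in full. Of the guanylate-binding proteins 9 of 10 tested members rose (median 6.86, 6.47 with 4 genes at their bound), and of the immunity-related GTPases 12 of 13 (median 7.34, 7.10 with 2 at their bound). Gbp3 went from 7.34 and 73.5 to 5561 and 7729.5 normalised reads (8.04 ± 0.60) and Gbp7 from 3.15 and 69.7 to 4685 and 6756 (8.36 ± 0.75). In both genes untreated library 2 was the higher untreated library. Gbp5 had 0 untreated reads and 34.9 and 365 with IFN-β, at least 66.9-fold higher. Iigp1 went from 3.15 and 1.88 to 2994 and 5612 (10.21 ± 0.44, adjusted p = 6.25e-06) and Tgtp2 from 1.05 and 2.83 to 555 and 994 (8.05 ± 0.33). Tgtp1 and Tgtp2 are near-identical copies. The exceptions were Gbp10, at 0 untreated reads and 2.11 and 15.5 treated, and Irgq (-0.42), neither of which passed, except Gbp10 without untreated library 1 (adjusted p = 0.0340).

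Genes of antigen presentation on MHC class I rose in most tested members. The transporter subunit Tap1 went from 4.19 and 28.3 to 1758 and 3094 normalised reads (7.56 ± 0.66, adjusted p = 0.000224) and the immunoproteasome subunit Psmb8 from 0 and 6.60 to 88.7 and 195 (5.59 ± 0.69). Psmb9, another such subunit, had 1.05 and 1.88 untreated and 51.7 and 246 treated, a ratio of 105 (95% counting interval 35.5 to 511). Of 14 tested immunoproteasome and peptide loading genes 10 rose (5 without the block), with a median of 1.49; Tap2 rose by 3.73 ± 0.48 with the block (adjusted p = 0.222 without it). None of the 33 tested constitutive proteasome genes rose (median 0.00195), a count near the 3.37% that rose among all genes tested. Of 12 tested genes of the MHC class I list, which counts Nlrc5 among its members, 8 rose (5 without the block). The list median was 2.83 (2.02 with 3 at their bound). H2-D1, a classical heavy chain, went from 149.9 and 275 to 2531 and 2818 (3.71 ± 0.29), and Nlrc5, the transactivator of class I genes, had 0 and 0.942 untreated and 139 and 478 treated, a ratio of 647 (95% counting interval 116 to 25580.4). The class I chain genes are paralogs, so their reads may be split uncertainly. The general chaperones of loading, Calr, Canx and Pdia3, had changes of -0.02, 0.06 and -0.03.

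The remaining interferon-inducible families rose in part. Of 16 tested PARP genes with Dtx3l 8 rose (median 0.86), led by Parp14 (15.7 and 60.3 to 5379 and 6835 normalised reads, 7.57 ± 0.40), Parp9 (5.33 ± 0.39) and its partner Dtx3l (5.06 ± 0.44), whereas Parp1, the DNA repair enzyme, had a change of -0.09. Of 37 tested TRIM genes 9 rose, among them Trim12a (5.82 ± 0.62) and Trim12c (5.50 ± 0.44). Trim14, at 0 untreated reads, was at least 23.1-fold higher. The TRIM list median was 0.08, beside -0.03 over all tested genes. Of 10 tested PYHIN genes, which lie in a chromosome 1 cluster, 9 rose (median 5.78). Ifi205 went from 1.05 and 4.71 to 1103 and 1477 (8.54 ± 0.39) and Ifi203 from 2.10 and 16.0 to 1230.3 and 1564 (7.58 ± 0.67), and Aim2, an inflammasome sensor with 3.15 and 0 untreated and 1.06 and 1.82 treated, did not pass. Of 8 tested Schlafen genes 5 rose (3 without the block; median 3.92, 3.12 with 1 at its bound). Slfn9 went from 0 and 10.4 to 347 and 567 (7.04 ± 0.80) and Slfn8 from 1.05 and 3.77 to 129.9 and 180.4 (5.62 ± 0.61). Slfn5 rose by 4.41 ± 0.75, a call lost without untreated library 1 (adjusted p = 0.106), without IFN-β library 2 (0.141) and without the block (0.0891).

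**Figure D4:**
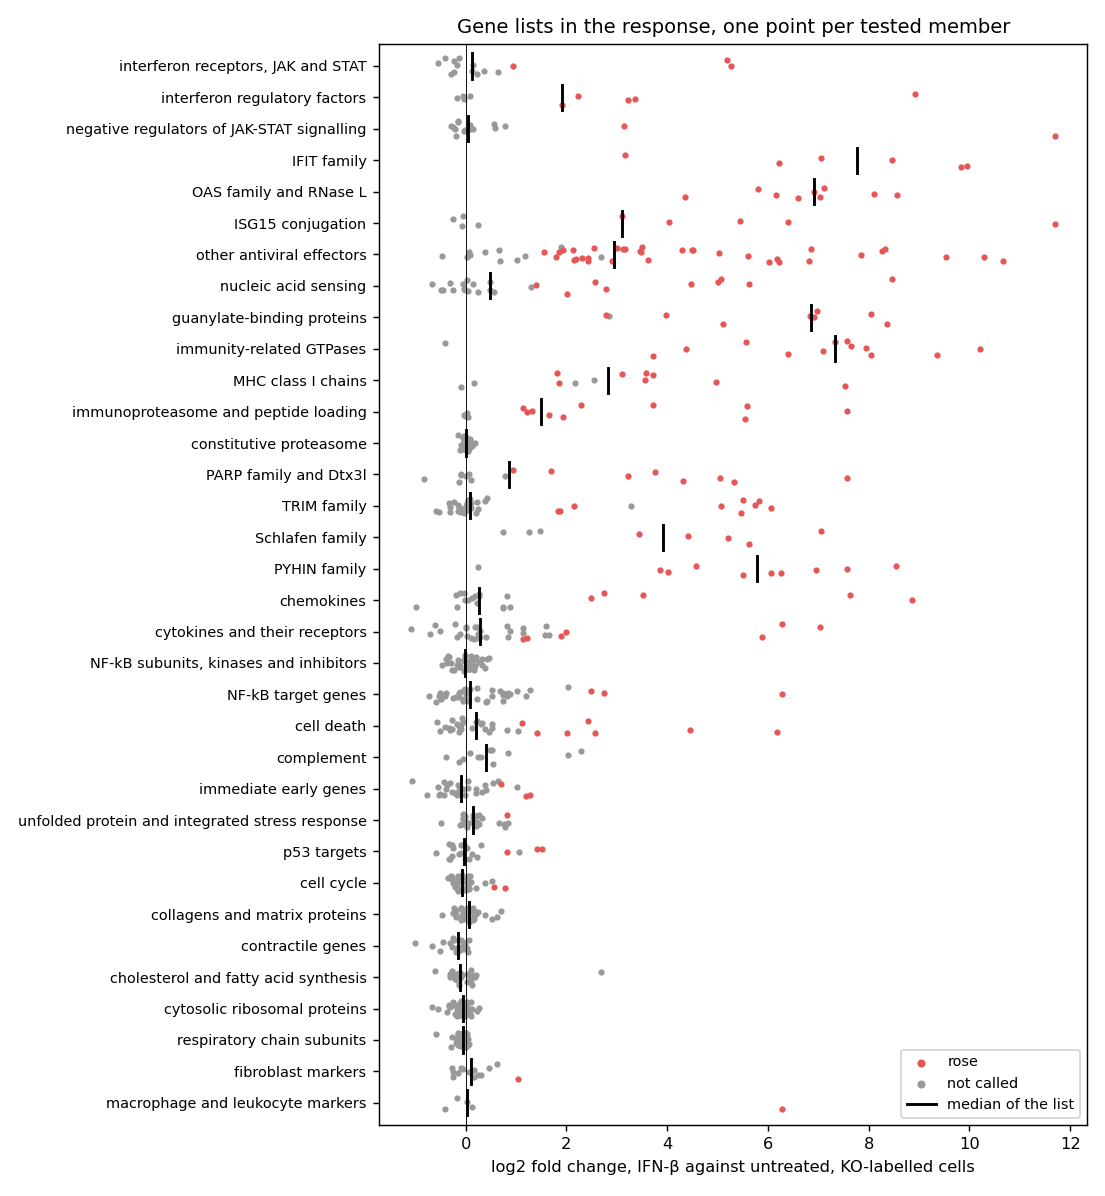
Log2 fold change in KO-labelled cells (x axis) of each tested member of 34 gene lists (y axis); red points are genes that rose, grey points genes not called, and black bars list medians. The interferon effector lists, such as IFIT and OAS, lie far right of 0, whereas housekeeping lists such as cytosolic ribosomal proteins and respiratory chain subunits centre on 0.

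Chemokines and cytokines rose in a few members only. Of 21 tested chemokines 5 rose (median 0.27): Cxcl10, which attracts activated T cells through CXCR3, went from 65.0 and 26.4 to 28228 and 13947 normalised reads (8.87 ± 0.36, adjusted p = 5.33e-06), Cxcl11 rose by 7.62 ± 0.37, and the monocyte attractants Ccl7 and Ccl2 by 2.74 ± 0.30 and 2.48 ± 0.19. Cxcl9, with 0 untreated reads and 7.39 and 14.6 treated, was at least 3.68-fold higher, a call lost without untreated library 1, untreated library 2 or IFN-β library 2 (adjusted p = 0.0863, 0.0800 and 0.219). Cxcl12, a chemokine that fibroblasts make constitutively, had 46699 and 37516 and 41917 and 32505 and did not pass. Of 34 tested cytokines and receptors 7 rose (median 0.28). Il6, a proinflammatory cytokine, went from 1.05 and 3.77 to 251 and 235 (6.29 ± 0.45, adjusted p = 7.79e-05), and Il15, which sustains natural killer and memory T cells, had 0 untreated reads and 57.0 and 59.2 treated, at least 19.5-fold higher. Il15ra, its presenting receptor, rose by 2.00 ± 0.25, and Tnfsf10 (TRAIL), a death ligand, had a ratio of 202 (95% counting interval 68.9 to 984).

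NF-κB components showed no called change: 0 of 37 tested subunits, kinases and inhibitors rose or fell (median -0.00237), against 3.48% of all genes called in either direction. For a list of this size that count lies near the background share and is no result about NF-κB. Nfkbia, the inhibitor IκBα and a direct target of the pathway, had 475 and 473 normalised reads untreated and 519.6 and 416 treated (-0.03 ± 0.14, adjusted p = 0.997). Of 41 tested NF-κB target genes 3 rose (Il6, Ccl2 and Ccl7; median 0.09). The list was chosen from textbook knowledge with earlier results of these data known.

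Genes of cell death rose in 7 of 33 tested cases (4 without the block; median 0.21). Xaf1, an antagonist of the caspase inhibitor XIAP, went from 10.5 and 98.0 to 2123 and 2829.5 (6.18 ± 0.72), the inflammatory caspase Casp4 from 2.10 and 9.42 to 86.6 and 177 (4.46 ± 0.37), and Daxx, a nuclear body protein, and Mlkl, the executor of necroptosis, rose by 2.57 ± 0.11 and 2.44 ± 0.17. Mcl1, Bak1 and Xiap had changes of -0.08, 0.23 and 0.30 and did not pass. None of 12 complement genes passed (median 0.40), a count near the 3.48% called among all genes tested and no result about complement. Risers were counted among immediate early genes (3 of 30), the unfolded protein and integrated stress responses (1 of 27), p53 targets (3 of 21) and the cell cycle (2 of 45), beside 3.37% of all genes tested. The stress response and cell cycle shares lie near that background and are no result about those groups. Without the block, 1 of the genes in these 4 lists kept its call, Zfp36 (adjusted p = 0.0372). Zfp36, an RNA-decay protein, rose by 1.21 ± 0.21 and lost its call without untreated library 1 (0.116), untreated library 2 (0.0918) or IFN-β library 2 (0.169). Among collagens and matrix proteins (33 tested), contractile genes (20), cholesterol and fatty acid synthesis (30), cytosolic ribosomal proteins (79) and respiratory chain subunits (75), no gene was called. Their medians lay between -0.15 and 0.06. For any 1 of these lists, a count of 0 lies near the 3.48% called among all genes tested. The fibroblast list had 1 riser of 16, Twist1, a mesenchymal transcription factor (1.04 ± 0.17, adjusted p = 0.00955; 0.0696 without the block), a call lost without untreated library 1 (0.106) or IFN-β library 1 (0.104).

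Genes that fell were few and their log2 fold changes lay between -1.09 and -0.50. All 14 were lower in both pairs, as were 4766 of the 12313 genes tested. In 11 the groups did not overlap, as in 9.67% of genes tested. The 14 were called by a fit that pairs the same libraries, so these counts describe them and test nothing. Mtss1, an actin-binding membrane-curvature protein, went from 313 and 337 to 159 and 146 normalised reads (-1.09 ± 0.17, adjusted p = 0.00784; 0.0452 without the block). Adra1d, an α1-adrenergic receptor, went from 118 and 128 to 64.4 and 57.4 (-1.01 ± 0.19, adjusted p = 0.0249). Fbxo32, a ubiquitin ligase of muscle wasting, went from 558 and 326 to 320.0 and 183 (-0.81 ± 0.15), and S1pr2, a sphingosine-1-phosphate receptor, from 628 and 792 to 415 and 531 (-0.59 ± 0.11). The other named genes were Nbeal2 (-1.07), Kank1 (-0.99), Tbc1d16 (-0.83), Chst12 (-0.70), Fblim1 (-0.65) and Vash2 (-0.63). The falls were not stable: of the 14, none was called without untreated library 2, 1 without IFN-β library 1, 1 without IFN-β library 2 and 2 without untreated library 1. Of the WT libraries, leaving out untreated library 3 left 6 of the 14 calls, IFN-β library 3 left 7 and IFN-β library 1 left 9. Without the block 2 genes fell, Mtss1 and 1110021J02Rik, the latter named after its value was seen.

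Genes that rose lay in clusters. Of 412 risen genes with a position in the annotation, 162 (39.3%) had another risen gene within 100 kb, against 7.84% of other tested genes, and 20 stretches held at least 3 (90 genes in all). In several of them every tested gene of the stretch rose: 9 PYHIN genes on chromosome 1, 8 genes around the IRG cluster on chromosome 11 (Irgm1 to Ifi47), 7 from Lipa to Ifit1 on chromosome 19, 6 of the Oas1a region on chromosome 5, 5 guanylate-binding proteins on chromosome 3 and 5 TRIM genes on chromosome 7. Psmb9, Tap1, Psmb8 and Tap2, which adjoin on chromosome 17, did so too. Near-identical neighbours can share reads, and the part of this in the count was not tested.

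The response in KO-labelled cells was set beside that in WT-labelled cells by an interaction term. No gene passed after adjustment in limma (0% called), where 151 of 12313 had an unadjusted p under 0.05. With edgeR 0 passed (140 at an unadjusted p under 0.05), whereas DESeq2 called 7 (83 at an unadjusted p under 0.05). These counts are under the share of 0.05 that arises where nothing differs. The term thus calls too seldom here, and a missing call does not show equal responses. The 2 responses share a spread estimate and the replicate block but no libraries. Of the 415 genes that rose in KO-labelled cells, 386 also rose in WT-labelled cells, where 576 rose in all (4.68%), and all 415 had a positive fold change there. In 286 of the 415 the fold change was larger in KO-labelled cells, with a median difference of 0.18, against -0.00363 over all genes tested. The 415 were selected by their call in KO-labelled cells, which favours larger fold changes there, so nothing is read from that count.

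A few named genes show how levels and fold changes parted. Ifit1 rose from 23.1 and 114 to 19381 and 17761 normalised reads in KO-labelled cells and from 309, 1236 and 881 to 26348, 26492 and 26910.1 in WT-labelled cells, a difference in log2 fold change of 3.21 ± 0.71 (unadjusted p = 0.00183, adjusted 0.9999). The untreated KO libraries were lower than every untreated WT library. Il6 rose from 1.05 and 3.77 to 251 and 235 in KO-labelled cells and from 240.5, 119 and 76.4 to 944, 562 and 322 in WT-labelled cells (4.20 ± 0.59, unadjusted p = 7.86e-05, adjusted 0.396). Both treated KO libraries were below the lowest treated WT library and close to the highest untreated one. Ccl2 had 258 and 318 and 1363 and 1891 in KO-labelled cells and 3279.8, 4297 and 9757 and 10381, 10374 and 16221 in WT-labelled cells, the difference being 1.26 ± 0.25 (adjusted p = 0.818). Nlrc5 had the difference 2.34 ± 0.44 (adjusted p = 0.818), from KO untreated values at or near 0. Slfn5 had a smaller fold change in KO-labelled cells, with a difference of -1.49 ± 0.97 (adjusted p = 0.9999). The 7 genes DESeq2 called, with KO minus WT log2 differences, were Il6 (4.53), Ifit3 (2.21), Plscr2 (2.12), Ccl2 (1.26) and Ifit2 (1.25) above 0, and Enpp4 (-1.74) and Slfn2 (-3.34) below. Plscr2, Ifit2 and Enpp4 were named after their values were seen. In limma, Ifit3, Ccl2 and Il6 had adjusted p = 0.818, 0.818 and 0.396, which did not pass.

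**Figure D5:**
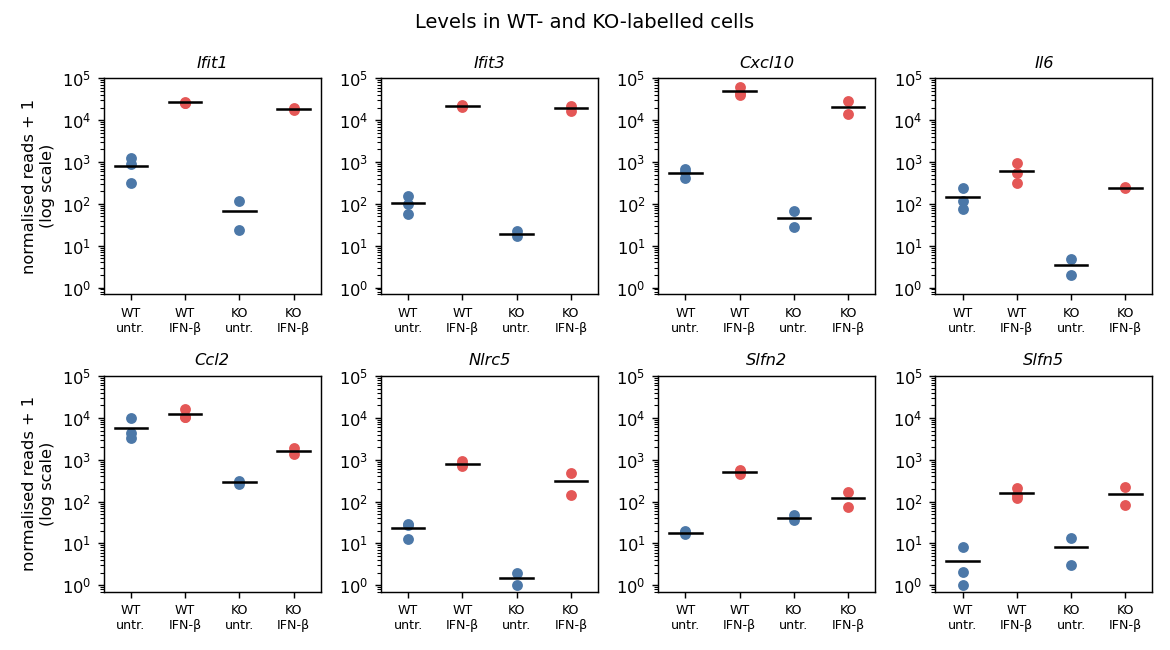
Normalised reads + 1 (log scale, y axis) of 8 genes in each library of WT- and KO-labelled cells, untreated in blue and IFN-β in red (x axis), with bars at group means. Ifit1, Cxcl10, Il6 and Ccl2 have lower untreated levels in KO- than in WT-labelled cells. For treated Ifit1, Il6, Ccl2 and Slfn2, both KO libraries lie below every WT library.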

How the data were processed

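RNA of 10 libraries was measured by stranded total RNA sequencing, and 4 are described here. The submitters' processing notes name cutadapt 1.13, STAR 2.5.2a, HTSeq, DESeq2 and the mm10 build; whether counting used strand is not given in the sources used here. The deposited values are a signal: whole reads per gene divided by each library's size factor, per the file contents. Dividing by the smallest step recovered whole reads for every value within 0.001 reads.

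From these values, log2(value + 1) of genes passing edgeR's filterByExpr (minimum count 10 on recovered reads) was fitted with limma 3.58.1 in R 4.3.3 over all 10 libraries, 4 groups and the replicate number as a block. Adjusted p-values are Benjamini-Hochberg over 12313 genes, called under 0.05. The pairing by number was set beforehand, so the block is in the reported fit. Libraries of the same number deviated together from their group means (r 0.48 to 0.871 over 13 pairs, at most 0.318 between different numbers). In a group of 2 libraries these deviations mirror each other, so r values repeat with opposite sign and are not independent. The labels give no meaning for the number. edgeR 4.0.16 and DESeq2 1.42.0 ran on recovered reads as alternatives, as did other filters, pseudocounts, TMM scaling and leaving out each library. On simulated data for this contrast the fit found 64% of 2-fold and 91.9% of 4-fold changes, and 12 of its 167 calls were wrong. The simulated means held no genotype effect and a replicate-number effect shared by both genotypes, as the fitted model assumes. These rates therefore need not hold for the real libraries. A gene at 0 untreated reads is given as at least N-fold higher, from a floor of 3 reads per library, and one with 1 to 3 as a ratio with a 95% counting interval, which covers counting error only. Named genes are 6 fixed genes, the 12 largest rises and falls, up to 4 called and 3 uncalled members of each list, the 6 risen genes of highest level, and the extremes between pairs and between genotypes (4 each way). The members and the 36 lists were chosen with earlier results of these data known. Motif letters were matched in the RefSeq promoters of GRCm38.p6, and positions come from GENCODE M21.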

Additional observations from a re-analysis of the deposited data

How the results depend on the processing

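No change called in the reported fit for a named gene turned direction under the alternatives run, whereas 47 named genes that were not called, Nfkbia and Irf2bp2 among them, changed sign in at least 1 leave-one-out fit. The count of genes called depended on the replicate block: without it 227 genes were called, 225 higher and 2 lower, against 429 (415 and 14). With edgeR and no block, an alternative chosen after seeing the data, 205 were called, 204 higher and 1 lower. Fitting the 4 KO libraries alone gave 1250 (897 higher, 353 lower) with the block and 10 (10 higher, 0 lower) without it. DESeq2 with the block called 32 genes lower. Leaving out 1 library at a time gave 269 to 552 genes called, 264 to 505 higher and 0 to 47 lower; a group left with 1 library was assumed to vary like the others. The lowest totals came without KO IFN-β library 2 (269), and the lower counts without KO untreated library 2 (0), WT untreated library 2 (47), KO IFN-β library 1 (4), KO IFN-β library 2 (5), KO untreated library 1 (6), WT untreated library 3 (6) and WT IFN-β library 3 (7). The difference between genotypes gave 0 to 4 called genes on leaving out a library (4 without KO untreated library 2, 1 each without KO untreated library 1, KO IFN-β library 2 and WT untreated library 1), and 7 with DESeq2. With the last base of the motif dropped, 31.8% of the risen and 8.57% of all tested genes matched. Pseudocounts of 0.5 and 5, TMM scaling, no filter and a minimum count of 50 kept these counts within 1.5 times. The 189 named genes tested include genes that were not called, and 26 of the called ones lost their call without the block. Depth limits genes near 0 untreated reads, 53 of the risen genes having at most 3.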

Other observations

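Of the 415 genes that rose in KO-labelled cells, 245 were on none of the lists, and those named here, other than Apol6 and Apol9a, were chosen after their values were seen. Examples are apolipoprotein L genes, picked from among the risen genes, so that they are no result about the family, of which Apol8 (1.66) was not called. Apol9b went from 43.0 and 102 to 893 and 1115 normalised reads in libraries 1 and 2 (3.89 ± 0.26, adjusted p = 5.43e-05), Apol9a from 8.39 and 113 to 971 and 1176 (5.03 ± 0.71) and Apol6 from 6.29 and 64.1 to 144 and 1066 (4.17 ± 0.44, adjusted p = 0.216 without the block). Apol7a (2.97 ± 0.54) and Apol10b (3.59 ± 0.76) lost their calls without the block (adjusted p = 0.331 and 0.180). Apol9a and Apol9b are near-identical, so their reads may be split uncertainly.

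Other unlisted genes had diverse known roles. Dll1, a Notch ligand, had 0 untreated reads and 57.0 and 93.9 with IFN-β, at least 25.3-fold higher. Hap1, a huntingtin-associated trafficking protein, went from 3.15 and 30.1 to 664 and 1051 normalised reads (6.20 ± 0.59), and Lgals9, a galectin, from 653 and 1117 to 4711 and 6797 (2.73 ± 0.19). Batf2, a transcription factor, had 0 and 0.942 and 28.5 and 91.1, a ratio of 125 (95% counting interval 22.1 to 4983). Nos2, which makes nitric oxide, went from 3.15 and 17.9 to 22.2 and 151 (2.75 ± 0.51, adjusted p = 0.744 without the block) and Xdh, a purine-degrading enzyme, from 89.1 and 659.5 to 646 and 2858 (2.48 ± 0.34, 0.794 without the block). For Xdh the untreated library 2 was above the treated library 1, whereas both pairs were higher with IFN-β.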
